A study of Homo sapiens with 6 samples.

Results

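The comparison set 1 array of the Twist line treated with the first level of Cmp302 against 1 array of the same line given the solvent DMSO. HMLE cells are immortalised human mammary epithelial cells; the Twist line had received Twist, a driver of epithelial-mesenchymal transition, from a pBabe retrovirus, and the control line a GFP hairpin from the same vector (pBabe-shGFP). Affymetrix U133 Plus 2.0 arrays measured RNA of both lines after DMSO or Cmp302 at 5 µM or 10 µM, on 6 arrays with 1 per group. The sample titles and the series description give 5 or 10 µM for 6 h. By contrast, the tags and source names put the first level at 2 µM for 4 h and the second at 2 µM for 8 h, so the levels may be doses or times; they are called here 5 µM and 10 µM, after the titles. The sources used here do not say whether the lines were pools or single clones. The 2 arrays were chosen by their titles, and the brightest probe set on average stood for a gene, taken from those that carry a single symbol. Of 19775 genes, 11868 were measured, meaning that they lay above a floor of 3.71 log2 units on at least 1 of the 2 arrays; 11469 lay above it on both.

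Cells that must fold many secreted proteins, or that lack amino acids, use a shared program called the integrated stress response. Kinases phosphorylate the initiation factor eIF2, most translation slows, and the mRNA of the transcription factor ATF4 is translated more; ATF4 and its partner CHOP, the product of DDIT3, then act on genes for amino acid supply, tRNA charging and feedback. The unfolded protein response of the endoplasmic reticulum (ER) uses this branch beside IRE1 and ATF6, which act on chaperone genes. Cells after epithelial-mesenchymal transition secrete much extracellular matrix.

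Promoter sequences are shown for 6 genes that were higher at 5 µM and hold a motif searched, to show what the motif counts given later stand for. They are the 250 bases before the first listed start, from RefSeq on GRCh38.p14, printed 5′ to 3′ on the gene's strand with the matched bases in capitals. For CHAC1 (chr15:40953221-40953470, plus strand), ASNS (chr7:97872409-97872658, minus strand) and HERPUD1 (chr16:56931892-56932141, plus strand) the capitals mark the C/EBP-ATF composite, TGATGNAAN on either strand, to which ATF4 binds with a C/EBP factor. For CRELD2 (chr22:49918384-49918633, plus strand) they mark the ER stress element, and for IL6 (chr7:22726950-22727199, plus strand) and CXCL2 (chr4:74099196-74099445, minus strand) the NF-kB motif, GGG and TTTCC with any 2 bases between them.
CHAC1: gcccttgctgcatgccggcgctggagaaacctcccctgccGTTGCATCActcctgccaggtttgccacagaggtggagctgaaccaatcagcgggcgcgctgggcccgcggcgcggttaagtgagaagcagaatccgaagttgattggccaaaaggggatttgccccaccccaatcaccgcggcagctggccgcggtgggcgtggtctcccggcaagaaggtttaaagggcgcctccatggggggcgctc
ASNS: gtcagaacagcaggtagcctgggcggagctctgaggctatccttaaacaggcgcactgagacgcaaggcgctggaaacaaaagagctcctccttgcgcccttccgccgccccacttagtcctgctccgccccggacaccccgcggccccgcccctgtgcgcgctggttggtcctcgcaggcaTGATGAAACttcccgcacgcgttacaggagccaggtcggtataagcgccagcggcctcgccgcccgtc
HERPUD1: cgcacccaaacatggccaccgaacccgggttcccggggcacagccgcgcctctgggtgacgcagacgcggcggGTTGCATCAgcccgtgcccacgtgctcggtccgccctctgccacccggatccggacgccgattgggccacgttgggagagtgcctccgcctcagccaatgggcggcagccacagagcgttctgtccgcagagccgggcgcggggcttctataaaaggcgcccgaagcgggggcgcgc
CRELD2: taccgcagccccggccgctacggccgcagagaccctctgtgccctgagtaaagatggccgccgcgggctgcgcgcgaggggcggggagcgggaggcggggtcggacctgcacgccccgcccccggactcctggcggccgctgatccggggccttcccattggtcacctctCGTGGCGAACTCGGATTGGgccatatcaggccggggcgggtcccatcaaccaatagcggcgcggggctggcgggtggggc
IL6: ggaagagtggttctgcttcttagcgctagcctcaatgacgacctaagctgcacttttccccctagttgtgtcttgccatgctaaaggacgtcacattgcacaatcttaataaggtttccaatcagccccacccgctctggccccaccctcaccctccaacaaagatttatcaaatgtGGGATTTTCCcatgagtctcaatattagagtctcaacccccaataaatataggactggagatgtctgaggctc
CXCL2: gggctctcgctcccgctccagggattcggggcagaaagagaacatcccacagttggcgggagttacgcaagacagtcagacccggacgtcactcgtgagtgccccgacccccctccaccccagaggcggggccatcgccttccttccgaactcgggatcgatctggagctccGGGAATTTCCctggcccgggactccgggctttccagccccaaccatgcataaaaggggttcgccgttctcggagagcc
The first base of the match lay at -210 in CHAC1, -68 in ASNS, -177 in HERPUD1, -80 in CRELD2, -73 in IL6 and -78 in CXCL2, counted back from the start. In CHAC1, HERPUD1 and CRELD2 the motif reads on the opposite strand.

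The labels were checked first. TWIST1 had a signal of 11.57 log2 units on the DMSO array and 11.96 on the 5 µM array of the Twist line, against 10.48 to 10.70 on the control-line arrays. The Twist-line difference was 0.39 log2 units, or 0.19 when quality-matched as described below. The 1 probe set of TWIST1 may not read the viral cDNA. CDH1 (E-cadherin) and EPCAM, both epithelial surface genes, and the basal keratin KRT5 lay at the floor on both Twist-line arrays and between 12.58 and 13.38 on the control-line arrays. Of 29 epithelial junction genes on the array, 28 lay above the floor on control-line DMSO, 18 on Twist DMSO and 17 at 5 µM. Of 8 basal genes these counts were 8, 4 and 3, and of 10 luminal genes 9, 6 and 6. Of 24 mesenchymal markers on the array, 23 lay above the floor on both Twist-line arrays and 19 on the control-line DMSO array, with summed signals of 262.72 log2 units on Twist DMSO, 262.14 at 5 µM and 218.62 on control-line DMSO. Of 5 blood markers 1 lay above the floor on DMSO and 0 at 5 µM, and of 4 endothelial markers 1 on each.

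RNA quality differed between the 2 arrays. The 3′ minus middle contrast of the GAPDH and ACTB control probe sets, which is higher where RNA is more degraded, was 0.955 log2 units on the Twist DMSO array, the highest of the 6, and 0.355 on the 5 µM array. In the control line it was 0.28, 0.45 and 0.835 on DMSO, 5 µM and 10 µM. A quality-matched difference is therefore given for the lists, and for named genes where it ends the 2-fold call or moves the value by over 1.5 times: the 3 control-line arrays gave a slope per gene against the contrast, and the part this slope predicts was subtracted. That slope also holds any response of the control line. For a gene at the floor on all 3 control-line arrays the slope is flat and nothing is subtracted. Its difference then stays the same whatever the RNA quality, as for IL6 (3.94 log2 units in both settings). The DMSO array is the baseline of every difference and could not be left out, and the part of RNA quality in the results was not tested beyond these values.

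At 5 µM, 525 genes (4.42% of those measured) were higher past 2-fold and 595 (5.01%) were lower. In the control line the same step gave 7 higher (0.0585%) and 8 lower (0.0668%) of 11968 genes. The larger differences were mostly increases, with 46 genes higher and 18 lower past 4-fold, 21 and 1 past 8-fold, and 8 and 0 past 16-fold. Many genes lay close to the threshold, with 168 higher genes within 0.1 log2 units inside it and 221 within 0.1 outside it. Quality-matched, 331 genes were higher and 464 lower. The shares over all genes, 4.42% higher and 5.01% lower, are the background for each list count as measured below. For the quality-matched list counts the background is 331 higher and 464 lower of the same 11868 genes.

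**Figure D1:**
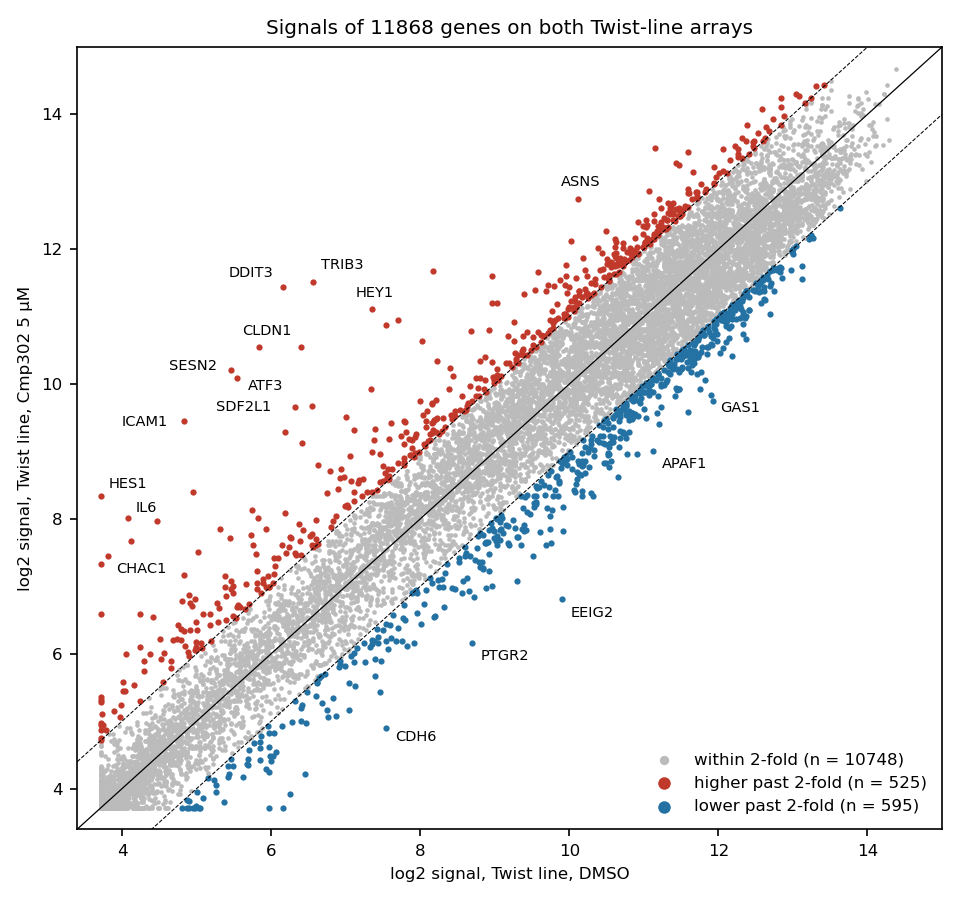
Log2 signal on the Twist-line 5 µM array (vertical) against the DMSO array (horizontal) for 11868 genes, 1 point per gene; the solid line marks equal signal and the dashed lines 2-fold. Red points (525) lie above and blue points (595) below, and the points farthest from the line are red.

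No replicate array stands behind these differences. A limma fit gave each Twist-line array its own coefficient and took the spread from the 3 control-line arrays, with 2 residual degrees of freedom, so the lone arrays are assumed to vary like those. At a Benjamini-Hochberg adjusted p of 0.05, 246 genes rose (1.97% of 12478) and 227 fell (1.82%). Of these 473 genes, 283 had no control-line array above the floor, and leaving out any 1 control-line array left 0 calls. Restricted, after the data were seen, to the 11640 genes that all 3 control-line arrays put above the floor, the fit called 993 rises (8.53%) and 1104 falls (9.48%). The 3 control-line arrays had 3 different treatments, so their spread is not that of replicates, and no p-value is given below for single genes: their differences describe these 2 arrays.

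The transcription factors of the integrated stress response were led by DDIT3 and ATF3. Of 17 measured factors, 4 were higher past 2-fold and 0 lower (3 and 0 quality-matched), with a median difference of 0.51 log2 units, or 0.41 quality-matched, against 0.00 over all genes. DDIT3 had signals of 5.26, 5.62 and 5.38 in the control line on DMSO, 5 µM and 10 µM, and of 6.16 and 11.44 in the Twist line on DMSO and 5 µM, a 38.9-fold difference (5.28 log2 units). The Twist 5 µM array stood above these 4 others, and the Twist 10 µM array was higher still, at 11.96. ATF3, a stress-induced repressor, was at 4.62 to 5.01 in the control line, 5.55 on Twist DMSO and 10.10 at 5 µM, 23.4-fold higher, with 1.43 log2 units on its other probe set. NUPR1, a stress-induced chromatin protein, went from 8.03 to 10.64. ATF4 itself differed by 1.08 log2 units, from 12.68 to 13.76, and by 0.92 when quality-matched; its control of translation is not seen by an array.

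Target genes of ATF4 and CHOP gave 10 (37%) higher and 3 (11.1%) lower of 27, or 8 and 2 quality-matched. Their median was 0.61, or 0.56 quality-matched. The members named here were all higher. TRIB3, a pseudokinase that restrains ATF4, had 8.06 to 8.21 in the control line, 6.56 on Twist DMSO and 11.52 at 5 µM, a 31.1-fold difference (4.96 log2 units). SESN2, which lowers mTORC1 activity, went from 5.47 to 10.21, 26.7-fold higher. CHAC1, which degrades glutathione, lay at 3.81 on DMSO, near the floor, and at 7.45 at 5 µM, a difference of 3.64 log2 units. TRIB3, SESN2 and CHAC1 all lay below the control-line range on Twist DMSO and above it at 5 µM. Over the 10 higher members, 6 lay below that range on DMSO and 9 above it at 5 µM. Over all 525 higher genes these counts were 307 and 418. PPP1R15A, the phosphatase subunit that reverses eIF2 phosphorylation, was 8.57-fold higher, from 6.19 to 9.29.

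Some genes of amino acid supply and tRNA charging were higher, and most members of these lists stayed within 2-fold. ASNS, asparagine synthetase, had 11.66 to 11.91 in the control line, 10.12 on Twist DMSO and 12.75 at 5 µM, 6.19-fold higher (2.63 log2 units). It was the highest of 5 higher genes among 17 for serine, one-carbon and asparagine synthesis, of which 3 passed quality-matched. Among 22 amino acid transporters, 5 were higher, and 5 remained past 2-fold by count when quality-matched. SLC1A4, a neutral amino acid carrier, was 4.35-fold higher, with its 5 probe sets between 0.20 and 2.52 log2 units; SLC3A2, the heavy chain shared by several carriers, was 3.68-fold higher; and SLC7A11, the cystine carrier, was 2.85-fold higher. The transporter median was 0.12, and 11 of 22 were above DMSO. Of 19 cytosolic tRNA synthetases 5 were higher, AARS1 most at 4.2-fold, with a median of 0.33 that was 0.13 quality-matched, where 3 passed. Of 15 mitochondrial synthetases, 0 were higher or lower past 2-fold.

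Of 23 ER chaperones and co-chaperones 8 were higher and 0 lower, with a median of 0.65 that was 0.24 quality-matched, and 5 stayed past 2-fold by count. SDF2L1, a partner of BiP, was at 7.41 to 8.14 in the control line, 6.33 on Twist DMSO and 9.66 at 5 µM, 10.1-fold higher and 2.55 log2 units quality-matched. BiP itself, HSPA5, differed by 0.95 log2 units, from 12.87 to 13.82, just inside 2-fold, and its other probe set differed by 2.31. CRELD2, an ER chaperone, was 3.12-fold higher and HYOU1, which exchanges nucleotide on BiP, 3.51-fold higher. Of 17 disulfide isomerases and oxidases 3 were higher, and PDIA4, 2.3-fold higher, was the highest; quality-matched, 1 passed and PDIA4 differed by 0.81, and its other probe set differed by -0.26. HERPUD1, a membrane protein of ER-associated degradation, went from 11.15 to 13.51, 5.13-fold higher, while EDEM3, which trims mannose for degradation, went from 11.86 to 10.56, a difference that was -0.71 quality-matched. ERN1, which encodes IRE1, was 2.93-fold higher and XBP1, whose mRNA IRE1 splices, differed by 0.44, or 0.72 quality-matched. Translocation and COPII genes had a median of -0.15 over 42 members, with 2 (4.76%) higher, near the 4.42% over all genes, and 0 quality-matched.

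Inflammatory genes formed the other group of wide differences. Of 19 measured cytokines, chemokines and adhesion molecules, 8 were higher and 0 lower, with a median of 0.74, or 0.64 quality-matched, and 8 were past 2-fold in that setting too. Of the 19, 14 lay above the floor on every control-line array, and quality matching cannot move a gene at the floor on all of them. ICAM1, a receptor for leukocyte integrins, had 8.81 at 5 µM and 8.92 at 10 µM in the control line, 4.84 on Twist DMSO and 9.45 at 5 µM, 24.4-fold higher (4.61 log2 units); its 3 probe sets differed, by 0.01 to 4.61. IL6, a secreted cytokine, lay at the floor on the control-line arrays, at 4.08 on Twist DMSO and at 8.02 at 5 µM, 15.3-fold higher. LIF, a cytokine of the same family, went from 4.95 to 8.40 and CXCL3, a neutrophil chemokine, from 7.54 to 10.88. CXCL2, another, went from 9.03 to 11.21. ICAM1, LIF and CXCL3 were higher in the control line than on Twist DMSO, and at 5 µM reached or passed it.

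NF-kB subunits and inhibitors gave 7 higher and 1 lower of 21, or 4 and 0 quality-matched, with a median of 0.53 and 0.50 quality-matched. NFKBIA, the inhibitor that NF-kB itself induces, went from 8.16 to 9.73, 2.97-fold higher, and TNFAIP3, a ubiquitin editor that ends the signal, from 8.87 to 10.41. NFKB1, a subunit, was 2.81-fold higher, and RELB, another, 2.73-fold higher (1.45 log2 units), or 0.82 quality-matched. Of 32 interferon-stimulated genes 5 (15.6%) were higher and 3 (9.38%) lower, or 4 and 2 quality-matched. Those named next were all higher. OASL was 17.8-fold higher, from 6.41 to 10.56; IFIT2 was 11.4-fold higher, from 8.17 to 11.68, with a smaller difference on its other probe set; and IRF1 was 5.7-fold higher. The list median, 0.08, was -0.12 quality-matched, and 17 of 32 were above DMSO.

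Prostaglandin genes went both ways. PTGS2, the inducible cyclooxygenase, lay at 7.25 to 8.12 in the control line, 3.72 on Twist DMSO and 7.33 at 5 µM, 12.2-fold higher and 2.68 log2 units quality-matched. PTGR2, which reduces a prostaglandin metabolite, went from 8.70 to 6.16, 5.82-fold lower. HPGD, which inactivates prostaglandins, went from 4.90 to the floor, at least 2.27-fold lower. The receptor PTGER2 was 2.6-fold lower (-1.38 log2 units), or -2.13 quality-matched. The list had 1 higher and 3 lower of 14, as many as quality-matched.

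HEY1 and HES1, transcriptional repressors known as Notch targets, were both higher, whereas the Notch list as a whole was not. HEY1 lay at 5.54 to 5.92 in the control line, 7.36 on Twist DMSO and 11.11 at 5 µM, 13.5-fold higher. HES1 lay at 9.43 to 9.80 in the control line, at the floor on Twist DMSO and at 8.34 at 5 µM, at least 24.7-fold higher. HEY1 lay above the control-line range on both arrays and HES1 below it on both. They were the 2 higher members of 18, and the list median was -0.06.

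Oxidative stress genes gave 6 higher and 0 lower of 30, or 5 and 1 quality-matched. HMOX1, haem oxygenase, had 4.31 to 4.70 in the control line, 5.32 on Twist DMSO and 7.85 at 5 µM, 5.78-fold higher (2.53 log2 units). SQSTM1, an autophagy receptor, differed by 1.24 on its brightest probe set and by -0.10 as the median over its probe sets, so its direction depends on the probe set. Cholesterol and fatty acid synthesis gave 0 past 2-fold of 26, and metallothioneins and zinc transporters 0 of 10. Of 22 cytosolic heat shock genes 2 were higher, HSPA6 and HSPB1, and HSPA4L was lower, with a list median of 0.01; quality-matched, HSPB1 differed by 0.26 and HSPA4L by -0.97, so HSPA6 alone passed.

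**Figure D2:**
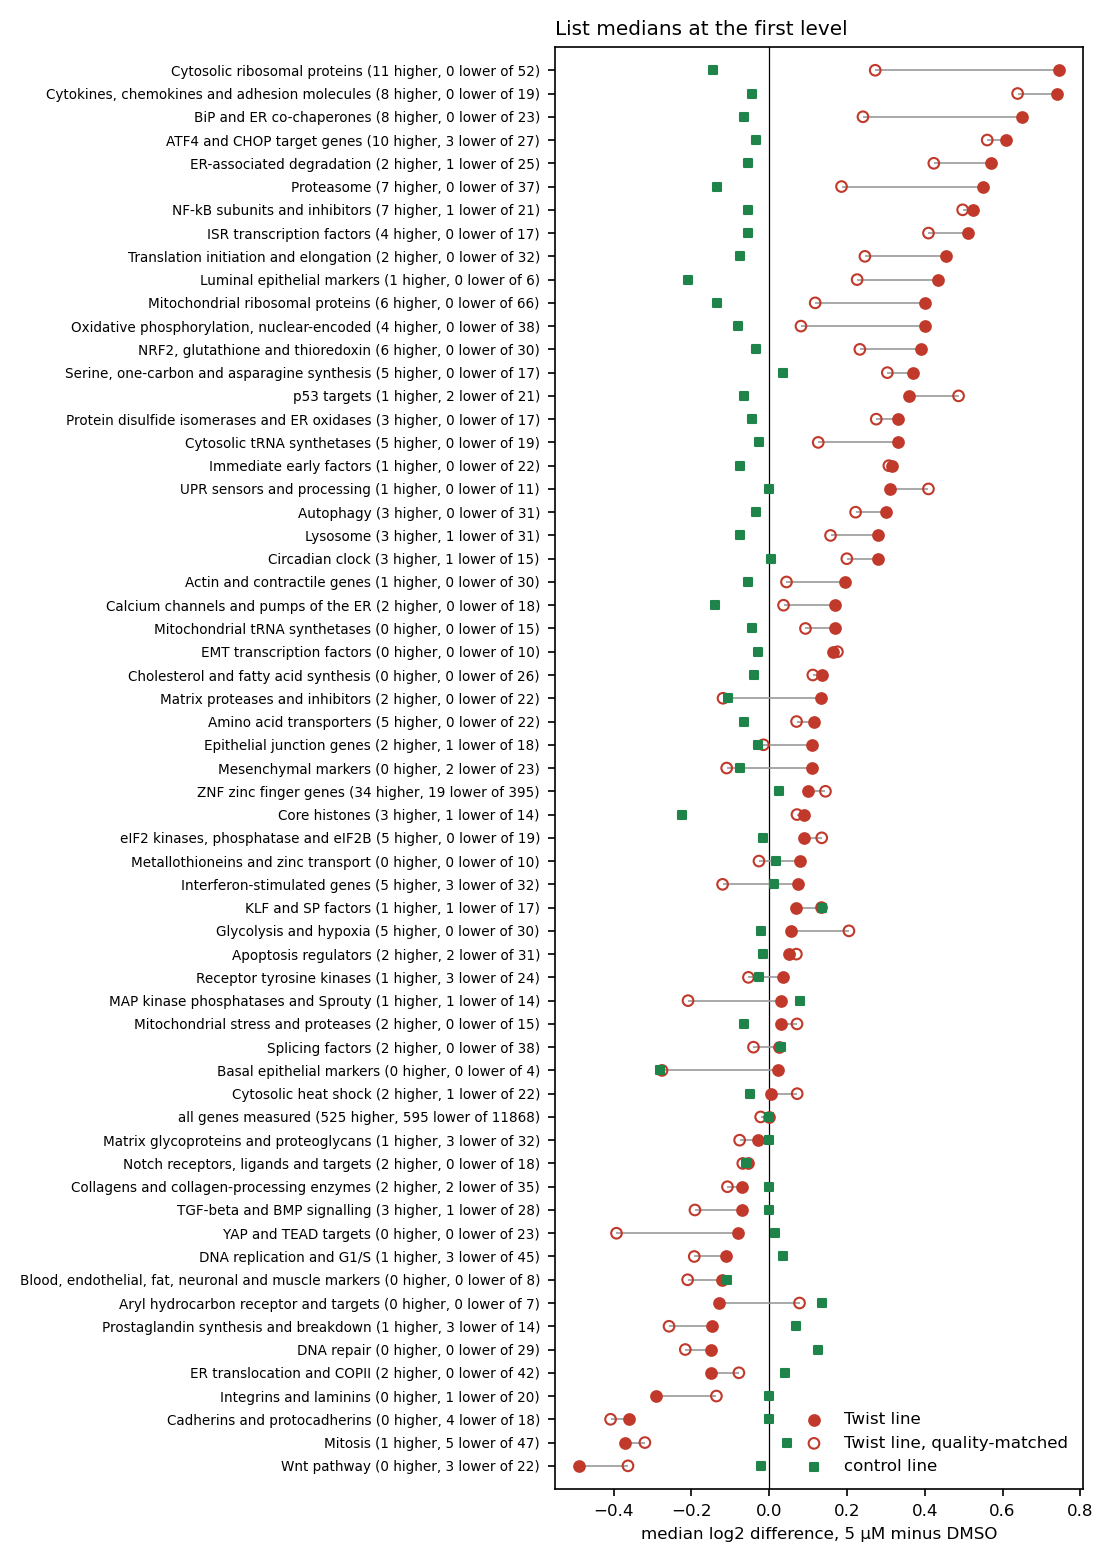
Median log2 difference, 5 µM minus DMSO, for 60 gene lists and for all genes measured; filled circles are the Twist line, open circles the same quality-matched, and squares the control line, with counts past 2-fold in the Twist line beside each name. Cytosolic ribosomal proteins had the highest median (0.75) and moved to 0.27 when quality-matched, whereas cytokines moved from 0.74 to 0.64.

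Several large housekeeping families were higher together, by less than 2-fold for most members. Of 52 cytosolic ribosomal protein genes 51 were above DMSO and 11 past 2-fold, with a median of 0.75; quality-matched, the median was 0.27 and 0 were past 2-fold. Proteasome genes had 7 higher of 37 and 0 quality-matched, mitochondrial ribosomal proteins 6 of 66 and 0, and oxidative phosphorylation genes 4 of 38 and 0. In the control line, where the contrast was higher at 5 µM, the medians of these 4 lists lay between -0.15 and -0.08. GAPDH, a glycolytic enzyme, differed by 1.34 log2 units and by 0.51 quality-matched. Across 10875 genes the differences of the lines, which share no array, had a Pearson r of -0.465, a description over genes that are not independent.

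The widest decrease was EEIG2, at 7.75 to 8.69 in the control line, 9.91 on Twist DMSO and 6.82 at 5 µM, 8.52-fold lower (-3.09 log2 units, or -4.02 quality-matched). Cadherins and protocadherins, cell adhesion receptors, gave 4 lower and 0 higher of 18, with a median of -0.36, or -0.41 quality-matched. Of the 18, 8 lay above the floor on every control-line array. CDH6, FAT4 and CDH10 lay at the floor on all of them, so quality matching could not move their values. CDH6 lay at the floor in the control line, at 7.55 on Twist DMSO and at 4.90 at 5 µM, 6.28-fold lower. PCDH18 went from 8.97 to 7.01, FAT4 from 5.26 to 3.95 and CDH10 from 8.08 to 6.95. All 4 stayed above the control-line range on both Twist-line arrays.

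Of 23 mesenchymal markers 2 were lower, LUM by 1.17 and PDGFRB by 1.33 log2 units, and the median was 0.11, which turned to -0.11 quality-matched. VIM differed by 0.61 on its brightest probe set, by -0.31 as the median over probe sets and by -0.06 quality-matched, so it has no settled direction. Collagens gave 2 higher and 2 lower of 35 (5.71% each), shares near the 4.42% and 5.01% over all genes. Quality-matched, 3 were higher and 1 lower. COL8A1 was 3.94-fold lower, from 10.32 to 8.34, and COL6A2 went from 8.06 to 9.12. GAS1, a membrane protein that slows the cell cycle, lay at the floor in the control line, at 11.91 on Twist DMSO and at 9.84 at 5 µM, with -0.18 on its other probe set. Of 10 measured transcription factors of epithelial-mesenchymal transition 0 passed 2-fold. Among 18 epithelial junction genes 2 were higher and 1 lower: CLDN1, a tight junction protein, lay at 9.82 to 10.63 in the control line, 5.84 on Twist DMSO and 10.55 at 5 µM, 26.2-fold higher (4.71 log2 units, or 3.85 quality-matched), with 1.57 on its other probe set. CLDN1 alone of these came back within the control-line range, as CGN was lower and PKP1, at 1.05 log2 units or 0.72 quality-matched, stayed below it.

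Mitosis genes had 5 lower and 1 higher of 47, or 3 and 0 quality-matched, with a median of -0.37 and -0.32 quality-matched, and 11 of 47 were above DMSO. E2F8, a repressor of cell cycle genes, went from 9.76 to 7.64, 4.35-fold lower. Its list, DNA replication and G1/S, had 3 (6.67%) lower and 1 (2.22%) higher of 45 (2 and 0 quality-matched) and a median of -0.11. Wnt pathway genes had 3 lower and 0 higher of 22 and a median of -0.49, or -0.36 quality-matched, where 4 were lower. LGR4, a receptor for R-spondins, was 3.36-fold lower, with -0.08 log2 units on its other probe set, and AXIN2, a feedback inhibitor and target, 2.36-fold lower. Of 31 apoptosis regulators 2 (6.45%) were higher and 2 lower, shares near those over all genes (4.42% and 5.01%), and quality-matched 0 and 2; APAF1, the scaffold of the apoptosome, went from 11.13 to 9.01. MYC was 2.28-fold higher as measured and -0.41 log2 units quality-matched, so its direction turned.

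Smaller sets of signalling genes had members on both sides. Of 28 TGF-beta and BMP genes 3 (10.7%) were higher and 1 (3.57%) lower, against 4.42% and 5.01% over all genes. Quality-matched, 2 were higher and 0 lower, and the median as measured was -0.07. INHBA, which encodes the activin A subunit, had 12.25 to 12.42 in the control line, 9.39 on Twist DMSO and 11.34 at 5 µM, 3.86-fold higher, and BMP2, a secreted ligand, went from the floor to 4.98, at least 2.4-fold higher. Both remained below the control-line range at 5 µM. Of 24 receptor tyrosine kinases 1 (4.17%) was higher, near the 4.42% over all genes, and 3 (12.5%) were lower (4 quality-matched). The higher one was EGFR, by 2.2-fold (1.14 log2 units, or 0.64 quality-matched). EPHA4, an ephrin receptor, went from 10.94 to 9.76, and its 4 probe sets lay between -1.18 and 0.10.

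Clock genes gave 3 higher and 1 lower of 15 (2 and 1 quality-matched). BHLHE40, a repressor of the clock, went from 9.80 to 11.46, which equals its control-line DMSO signal of 11.46; NFIL3, another repressor, went from 9.94 to 11.47. RORA, an activator, lay at the floor in the control line and went from 7.61 to 6.24. Core histone genes gave 3 higher and 1 lower of 14 (2 and 0 quality-matched), with H2AC6 going from 7.80 to 9.44 against 11.40 to 11.68 in the control line. Among matrix proteases, ADAMTS5, an aggrecanase, lay at the floor in the control line and was 4.82-fold higher in the Twist line, from 5.45 to 7.72.

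The zinc finger genes with ZNF symbols, mostly transcription factors, made up the longest list. Of 395 measured, 34 (8.61%) were higher and 19 (4.81%) lower, against 4.42% and 5.01% over all genes, with a median of 0.10, or 0.14 quality-matched, where 24 were higher and 14 lower. ZNF442 lay at the floor in the control line, at 4.84 on Twist DMSO and at 7.17 at 5 µM, 5.03-fold higher, and ZNF555 was 4.63-fold higher, from 7.11 to 9.32. ZNF850 was the lowest member, from 9.52 to 7.45. Of the 34 higher members 31 lay above the control-line range at 5 µM, as did 418 of all 525 higher genes.

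Genes outside the lists also stood among the widest differences. RAB39B, a vesicle GTPase, lay at the floor in the control line and went from 4.47 to 7.97, 11.3-fold higher, while its other probe set differed by 0.86. PARAIL was 11.8-fold higher, from 4.12 to 7.68. Among the lowest, LPCAT2, a lysophospholipid acyltransferase, had 11.48 to 11.92 in the control line, 9.69 on Twist DMSO and 7.61 at 5 µM, 4.23-fold lower, with its 4 probe sets between -2.08 and -0.22 log2 units, and SERTAD4 went from 10.66 to 8.62. CCDC190 lay at the floor in the control line and went from 6.46 to 4.22.

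Other probe sets of the called genes were read as a check on the choice of the brightest. Of the 525 higher genes 260 had another measured probe set, whose median had the same direction for 219 and passed 2-fold in it for 66. Of the 595 lower genes 349 had another, with the same direction for 260 and past 2-fold for 50.

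**Figure D3:**
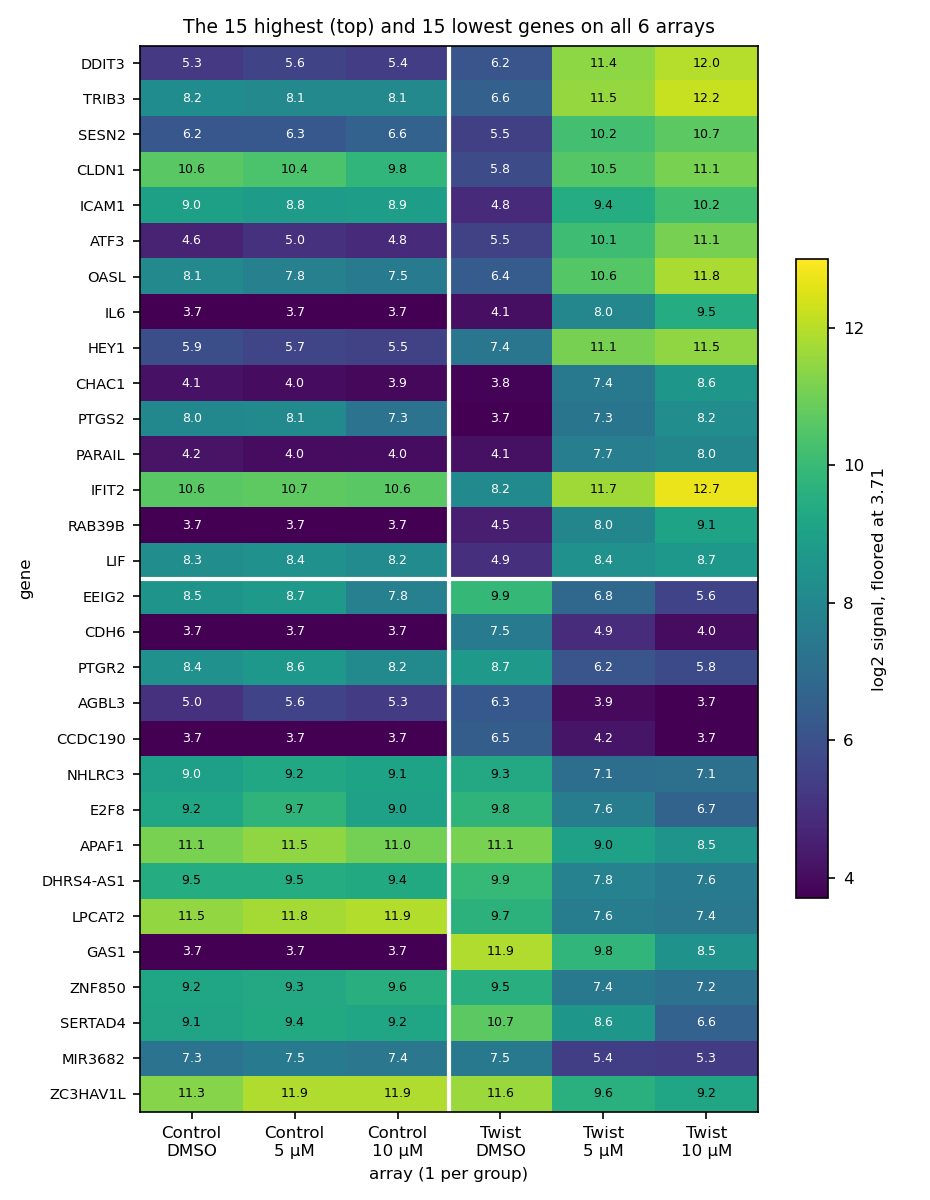
Log2 signal, floored at 3.71, of the 15 genes with the widest increases (top) and the 15 with the widest decreases (bottom), among genes above the floor on both Twist-line arrays compared and with no probe set in the other direction, on all 6 arrays, 1 column per array. The rows were chosen by the difference between the Twist 5 µM and Twist DMSO columns, so the direction between those columns was set by the choice.

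At the second level, which shares the DMSO array, the same genes had these values: DDIT3 differed from DMSO by 5.80, TRIB3 by 5.64, IL6 by 5.38, SDF2L1 by 4.33 and EEIG2 by -4.33 log2 units. Between the 2 treated arrays 70 genes (0.593%) were higher and 60 (0.508%) lower past 2-fold at 10 µM. Against DMSO, 959 genes (8.04%) were higher and 1009 (8.46%) lower at 10 µM, and in the control line 24 (0.2%) and 31 (0.259%). The 3′ contrast differed by 0.555 log2 units in that control-line pair.

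The position of the Twist-line arrays against the range of the 3 control-line arrays splits the calls. Of the 525 higher genes, 307 (58.5%) lay below that range on DMSO and 418 (79.6%) above it at 5 µM; 200 crossed it from below to above and 48 came to lie within it. Of the 595 lower genes, 456 (76.6%) lay above the range on DMSO and 404 (67.9%) below it at 5 µM, and 265 crossed it. Amounts of RNA per cell and cell numbers cannot be told apart in these bulk samples.

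Calls differed with the length of the gene. The median genomic span was 29.8 kb for all measured genes, 20.6 kb for higher and 55.1 kb for lower genes. Genes were ranked by span into 5 equal groups. Among the 2371 genes with the shortest spans 6.07% were higher and 2.99% lower, and among the 2371 with the longest 2.53% and 8.14%. Quality-matched, these shares were 3.8% and 2.78%, and 1.73% and 6.41%.

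**Figure D4:**
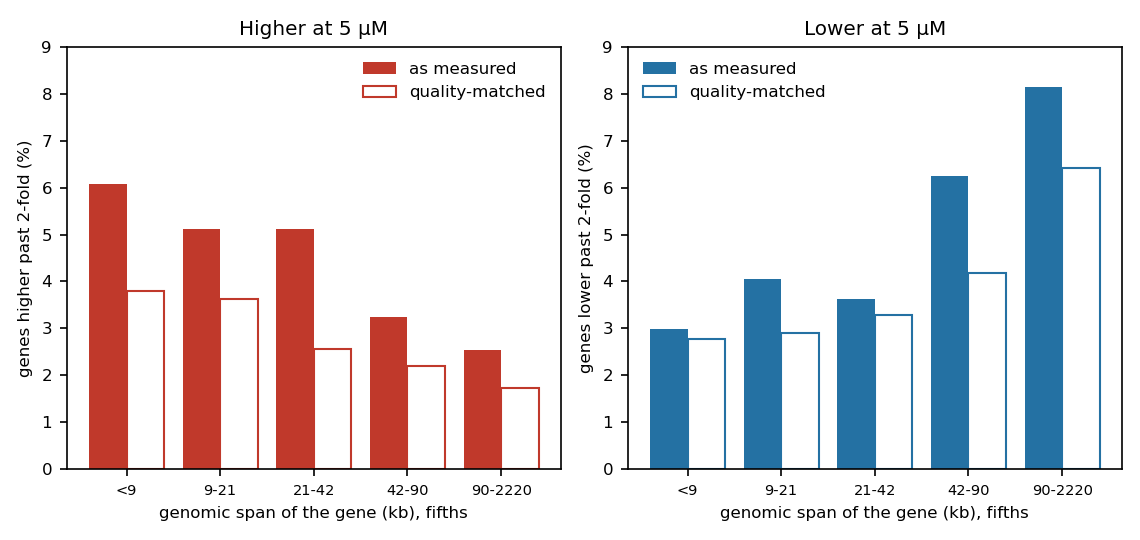
Percent of genes higher (left) and lower (right) past 2-fold at 5 µM in 5 equal groups of genes ranked by genomic span in kb; filled bars are as measured and open bars quality-matched. The share higher went from 6.07% to 2.53% and the share lower from 2.99% to 8.14% between the shortest and the longest group.

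Motifs were searched on both strands of 300 bases, 250 before and 50 after the start, in the 9731 measured genes matched to a RefSeq promoter. The C/EBP-ATF composite stood in 1.74% of all these promoters, 3.55% of those of 422 higher genes, 15.6% of 32 genes higher past 4-fold and 1.28% of 469 lower genes. The 5 holders past 4-fold were ATF3, CHAC1, ASNS, HERPUD1 and AARS1. The NF-kB motif stood in 2.22%, 4.5%, 9.38% and 1.49% of the same sets, and its holders past 4-fold were IL6, CXCL3 and CXCL2. The ER stress element, CCAAT and CCACG with any 9 bases between them, in 0.134% of all and 0.237% of higher promoters, and the UPR element TGACGTGG, in 0.935% and 0.711%, were rare in both. The cAMP response element TGACGTCA, the AP-1 site TGANTCA and the antioxidant element TGACNNNGC stood in 2.13%, 4.27% and 16.6% of higher promoters, against 3.32%, 4.54% and 15.4% of all. Past 4-fold, the ER stress and UPR elements stood in 0 of 32 promoters. The cAMP, AP-1 and antioxidant motifs stood in 3.12%, 6.25% and 18.8% of them. The motifs can share bases, and a match describes letters in a window, not a bound site.

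**Figure D5:**
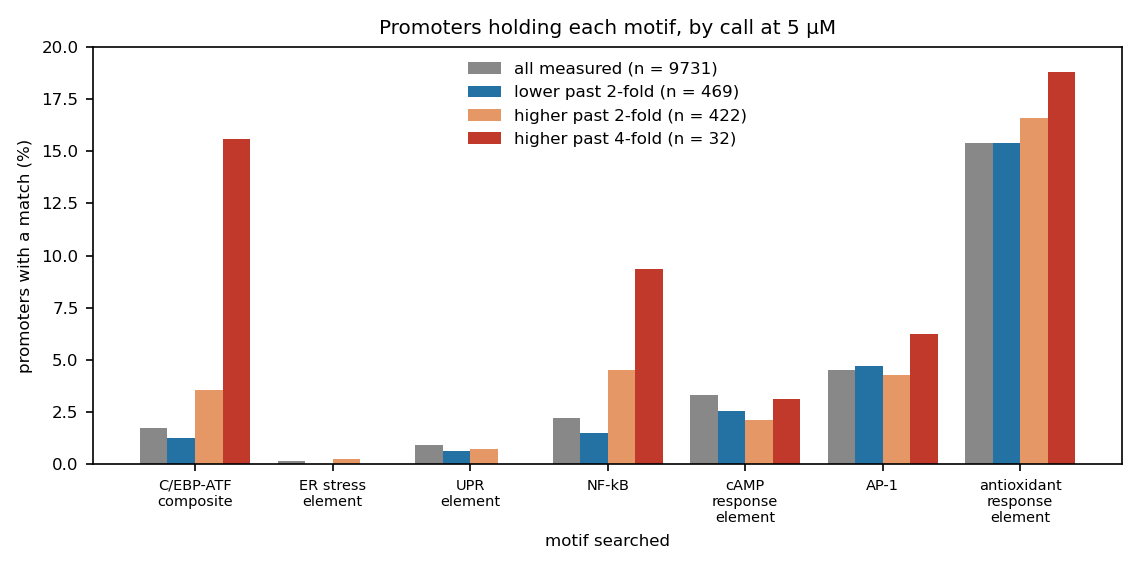
Percent of promoters with at least 1 match to each motif, for all measured genes (grey), lower genes (blue), genes higher past 2-fold (orange) and past 4-fold (red). The red bar for the C/EBP-ATF composite, 15.6% of 32 promoters, stands above the grey bar at 1.74%.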

How the data were processed

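RNA of 6 samples was measured with 1 array per group. The deposited values are log2 signals, a unit judged from their range because the labels name none; the submitters' processing notes list GCOS 1.2, and background correction, summarisation and normalisation are not given in the sources used here. Of 54675 probe sets, 62 controls were left out, and 1801 with several symbols and 11721 with none were set aside. Arrays were shifted to a common median ratio (offsets -0.03 to 0.01), and signals under the median of all values were set to it. Symbols were updated through gene IDs to RefSeq on GRCh38.p14 (99.87% matched).

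A call was a difference of 1 log2 unit. limma 3.58.1 in R 4.3.3 with a signal trend gave the fit. It was tried on simulated data over 12478 genes, where it recovered 11.9% of steps of 1 log2 unit and 68.7% of steps of 2. The simulated arrays all had the control-line spread, with no difference between the lines or in RNA quality. Recovery on the real arrays is therefore not known. Named genes were the 15 highest and 15 lowest among genes above the floor on both arrays whose measured probe sets all had 1 direction, up to 4 of each of 60 lists, and 10 chosen genes; CXCL2, EPCAM and KRT5 were added after their values were seen. Members and lists were chosen with earlier results of these data known. Alternatives were other scalings, floors, probe set rules and fits, and RNA quality. The number of arrays limits the precision.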

Additional observations from a re-analysis of the deposited data

Results flagged for a closer look

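Probe sets outside the gene table also differed at 5 µM in the Twist line. Among 1104 measured probe sets with several symbols, 73 were higher and 41 lower past 2-fold, against 4 and 1 in the control line. Among 3473 measured probe sets with no symbol, 83 were higher and 185 lower, against 18 and 0 of 3200 in the control line. These probe sets carry no single gene name here, and their differences are given as values. Over the 11868 genes measured, 525 (4.42%) were higher and 595 (5.01%) lower. Set against these, the share of no-symbol probe sets that were lower was near the background, and the share higher was under it.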

How the results depend on the processing

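Total counts past 2-fold moved by over 1.5 times in 2 settings: with the median over probe sets 323 genes were lower, and quality-matched 331 genes were higher and 152 list members, against 248, passed 2-fold. The limma fit moved most, with rises and falls of 22 and 22 with the floor at the 35th percentile, 815 and 949 with no floor or filter, 136 and 116 without the signal trend, 1951 and 2231 when both levels were fitted together, 993 and 1104 on genes that every control-line array put above the floor (chosen after seeing the data), and 0 to 0 without any 1 control-line array. The fit was also run on the quality-matched values. Its counts in that setting are not used, because the quality slope comes from the same arrays that give the spread. Directions turned for the median over probe sets in SQSTM1 (-0.10), ROR1 (1.03), DIDO1 (-0.56), CTSC (-0.20), PSMC2 (-0.98) and VIM (-0.31), without suffixed probe sets in SQSTM1 (-0.06), DIDO1 (-0.61) and PSMC2 (-1.07), and quality-matched in MYC (-0.41), CTSZ (-0.044) and VIM (-0.056); the cause was not tested. Of the counts for single lists, 137 moved by over 1.5 times and 823 did not; 48 of the 137 were quality-matched, 39 without suffixed probe sets and 34 with the median over probe sets. Of the other values for named genes, 1159 kept direction and side, 131 kept direction but not the threshold, and 1 newly passed it. No paired analysis was possible because each group holds 1 array. Signals near the floor limit low genes, whose differences are bounds.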
